A study of Mus musculus with 45 samples.

Results

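The response of homozygous ΔPG mouse embryonic stem cells (ESCs) to retinoic acid (RA) was read from 6 of the 24 RNA-seq libraries among the 45 samples of the study, 3 of RA-treated and 3 of control cells. Members were chosen by their labels (RA or ES, PG, hom), and every gene whose values varied in the table of ΔPG samples was tested, 21979 of 33924 genes listed. The remaining 11945 genes were at 0 in all 12 ΔPG libraries. The cells are D3 ESCs, given as strain 129 in the labels, grown without feeder cells in serum medium with leukemia inhibitory factor (LIF). In homozygous ΔPG cells a PGK-puro cassette takes the place of the gene body of the long noncoding RNA gene *5430416N02Rik* and of about 2 kb of its promoter on both alleles, so that the RA and the control samples carry the same deletion and the same drug-resistance cassette. The RA samples received 2 µM RA for 48 h and the controls (ES) received DMSO. Whether LIF was kept during the treatment is not given in the sources used here. Heterozygous ΔPG cells, with the cassette on 1 allele, and heterozygous and homozygous ΔG cells, which lost only the gene body, received the same treatments and are used below for comparison. More than 1 clone of each genotype was made, and how many were sequenced is not given in the sources used here, so that clone and genotype cannot be told apart. The replicates are called biological, but nothing says that they came from separate cultures, and p-values measure only the spread between these samples.

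RA is a derivative of vitamin A that enters cells, is carried by the CRABP proteins and binds the nuclear receptors RAR, which pair with RXR on direct repeats of a short DNA element near target genes. It is broken down by the CYP26 enzymes, themselves encoded by target genes, and it activates Hox genes, which give cells a position along the body axis. In ESC cultures RA is a classical inducer of differentiation, which shuts off the transcription factor network of pluripotency led by OCT4 (*Pou5f1*), SOX2 and NANOG.

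The values are regularized log2 (rlog) counts deposited by the authors, a scale on which 1 unit is a doubling and on which low or noisy genes are pulled toward their mean over samples, so that differences of weak genes are understated. The depth of each library is unknown. A gene was called when limma gave a Benjamini-Hochberg adjusted p under 0.1 and the RA and ES means differed by more than 0.5 on the log2 scale.

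Treatment was the main axis of the 12 ΔPG libraries. The first principal component held 83.8% of the variance over the 11904 genes with a mean rlog of at least 3 and separated RA from ES. The homozygous RA library of replicate 1 stood apart on the third component (1.84% of the variance), at 19.35 against 3.91 and 3.96 for the other RA libraries, and its difference from the mean of its fellow replicates had a standard deviation over genes of 0.234, against 0.155 and 0.157. Without it 6181 genes were called in place of 6116, and 5769 of the 6116 were called in the same direction. The targeted gene was low in all 6 libraries, at 2.23, 2.21 and 2.46 in ES and at 2.66, 2.12 and 2.28 in RA, while the heterozygous ES libraries had 4.58 to 4.62. These values overlap between treatments, and the RA minus ES difference of 0.05 ± 0.18 (SE, adjusted p = 0.874) was not called.

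RA changed 6116 genes in the homozygous cells, or 27.8% of those tested. It raised 3634 of them (16.5%) and lowered 2482 (11.3%). Among the 11904 genes with a mean rlog of at least 3 the shares were 23.6% higher and 18.9% lower. The list counts below are to be read against these shares. The RA and ES samples did not overlap for 6057 of the 6116 called genes (99%), against 52.7% of all genes tested. Among called genes, 1680 rose by more than 1 on the log2 scale, 434 by more than 2 and 12 by more than 4, while 757 fell by more than 1, 179 by more than 2 and 10 by more than 4. The median difference over all genes was 0.0052. The split between rises and falls depended on scaling: 59.4% of calls were rises as deposited, but 49.2% after quantile normalization of the 12 samples, which called 2864 genes higher and 2960 lower. In these bulk samples fewer cells of a type and less RNA per cell cannot be told apart.

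The largest rise was that of *H19*. *H19*, an imprinted noncoding RNA, had 8.98, 8.99 and 9.19 in ES and 13.99, 14.08 and 14.09 in RA, a rise of 5.00 ± 0.05. *Pmp22*, which encodes a membrane protein of myelin, went from 4.76 to 5.32 in ES to 9.72 to 9.75 in RA. Both genes had every RA sample above every ES sample. Groups that do not overlap were a condition for choosing the 24 genes of the plot of the largest rises and falls. The others among the 12 largest rises were *Cyp26a1*, *Tagln*, *Col1a2*, *Cyp1b1*, *Igfbp5*, *Cyp26b1*, *Gas1*, *Krt18*, *Crabp2* and *Col12a1*, with differences from 4.57 down to 4.00.

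Of the 12 largest falls 6 were of genes on the naive pluripotency list and 2, *Tdgf1* and *Nanog*, of genes on the core list. *Tdgf1*, the Nodal co-receptor also called Cripto, had 11.18, 11.17 and 11.24 in ES and 6.57, 6.30 and 6.09 in RA, so that it fell by 4.87 ± 0.09. *Nanog* had 10.96, 10.95 and 10.92 in ES and 6.67, 6.44 and 6.52 in RA (fell by 4.40 ± 0.06), and *Esrrb*, an orphan receptor of the naive network, lay between 10.59 and 10.60 in ES and between 6.30 and 6.37 in RA (fell by 4.27 ± 0.05). The spread within each group was small against these gaps. *Trpm1*, a cation channel gene, was the widest of the 12, at 4.40 in RA replicate 1 and 3.59 and 3.56 in the other RA samples. The others were *Fgf4*, *Tdh*, *Jam2*, *Tcl1*, *Sept1*, *Nr0b1*, *Mylpf* and *Spp1*, which fell by 4.19 down to 3.84.

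**Figure D1:**
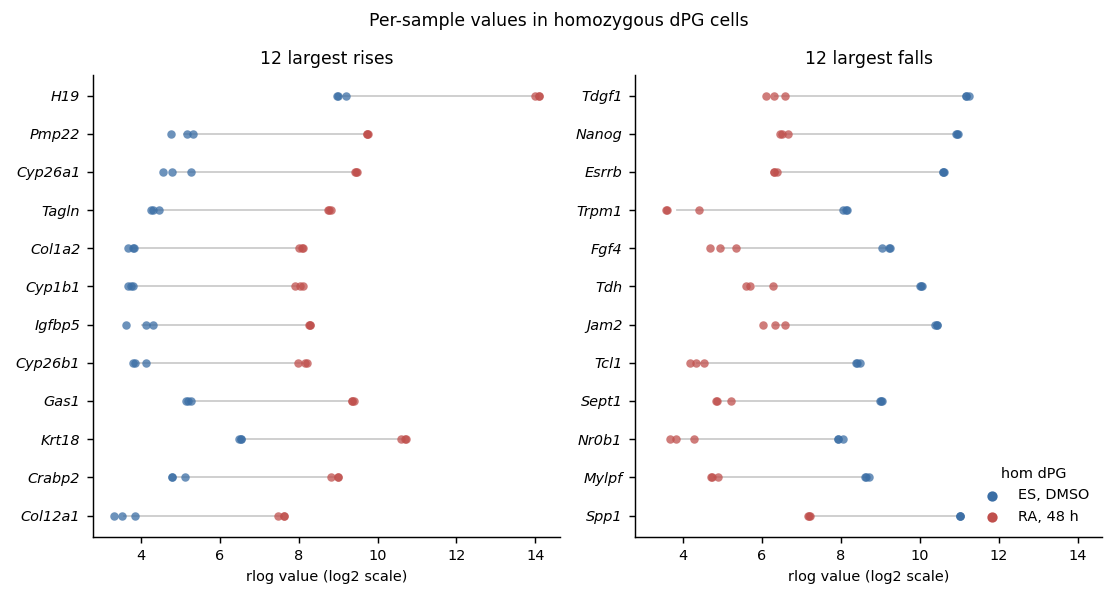
Values of the 12 genes with the largest rises (left) and the 12 with the largest falls (right) in homozygous ΔPG cells, as rlog values on a log2 scale, with 1 point for each of 3 ES (blue, DMSO) and 3 RA (red, 48 h) samples and a grey line between the group means. The 24 genes were chosen among those whose RA and ES points do not overlap, and they run from *H19* (rise of 5.00) to *Tdgf1* (fall of 4.87).

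The genes for retinoid binding, synthesis and breakdown moved mostly upward, while the receptor genes were mixed. Among 6 receptor genes, 2 were called higher and 1 lower. A mean rlog of at least 3 was reached by 5 of them, and among all such genes 23.6% were called higher and 18.9% lower. So few receptor genes cannot be set apart from these shares. *Rarb*, which encodes RARβ, had 5.08, 5.37 and 5.55 in ES and 7.73, 7.88 and 7.93 in RA, a rise of 2.52 ± 0.11 (adjusted p = 8.52e-09). *Rxra*, the partner RXRα, rose by 1.71 ± 0.12, from 5.71 to 6.04 in ES to 7.34 to 7.74 in RA. *Rarg* went the other way, from 8.00, 7.82 and 8.01 in ES to 6.55, 6.89 and 6.72 in RA, a difference of -1.22 ± 0.09 (adjusted p = 5.62e-07). The groups did not overlap for any of the 6 receptor genes, called or not, nor for 52.7% of all genes tested. The other receptor genes, *Rara* (0.37, adjusted p = 0.0075), *Rxrb* (0.49, adjusted p = 0.000258) and *Rxrg* (0.25, adjusted p = 0.0623), stayed under the limit of 0.5.

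Of 17 genes for retinoid binding, synthesis and breakdown, 10 were called higher and none lower, and 10 of the 12 that could be corrected for GC content were still called higher after the correction. The breakdown enzyme *Cyp26a1* had 4.79, 4.56 and 5.28 in ES and 9.47, 9.44 and 9.42 in RA (rise of 4.57 ± 0.14), and *Cyp26b1* had 3.84, 3.80 and 4.14 in ES and 7.97, 8.22 and 8.17 in RA (rise of 4.19 ± 0.11). Both breakdown genes had a gap of several units between the groups. *Crabp2*, which carries RA to the nucleus, rose by 4.04 ± 0.10, *Stra6*, the cell surface receptor for retinol bound to its plasma carrier, rose by 3.86, and *Dhrs3*, which turns retinaldehyde back into retinol, rose by 2.32. Enzymes that make RA gave smaller values. *Rdh10*, which oxidizes retinol, rose by 1.00, while *Aldh1a1*, *Aldh1a2* and *Aldh1a3* differed by 0.26, 0.41 and -0.26 and were not called.

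The classical arrangement bound by RAR and RXR repeats the hexamer AGGTCA in the same direction with 5 bases between the copies. Each copy could also read GGGTCA in the search, with the spelling AGTTCA allowed too and likewise the spelling GGTTCA. The repeat was searched on both strands in the 250 bases before the start of each gene, in promoters from RefSeq (GRCm38.p6), and 28 of 27025 gene symbols (0.104%) had it. A promoter was at hand for 47 of the 75 genes of the receptor, retinoid, Hox and Hox partner lists, and 2 of them held the repeat, *Rarb* and *Cyp26a1*, both among the genes called higher. They are shown here because they encode a receptor and a breakdown enzyme of RA. Capitals mark the repeat, which runs from 53 to 37 bases before the start in *Rarb* (chr14:16575477-16575726, minus strand) and, on the opposite strand, from 32 to 16 bases before the start in *Cyp26a1* (chr19:37697558-37697807, plus strand).
Rarb: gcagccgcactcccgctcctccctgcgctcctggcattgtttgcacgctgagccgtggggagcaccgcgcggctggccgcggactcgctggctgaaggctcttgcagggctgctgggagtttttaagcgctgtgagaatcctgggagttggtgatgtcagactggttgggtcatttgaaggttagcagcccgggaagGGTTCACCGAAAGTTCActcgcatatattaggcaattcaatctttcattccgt
Cyp26a1: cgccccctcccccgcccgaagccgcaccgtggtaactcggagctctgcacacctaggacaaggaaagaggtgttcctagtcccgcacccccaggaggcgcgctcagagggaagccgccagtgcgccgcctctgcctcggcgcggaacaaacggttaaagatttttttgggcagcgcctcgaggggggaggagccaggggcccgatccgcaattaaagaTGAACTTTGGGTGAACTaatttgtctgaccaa
Over all tested genes with a promoter, the repeat was in 3 of 2534 called higher (0.118%), in 1 of 1608 called lower (0.0622%) and in 10 of 12845 in all (0.0779%). With a spacer of 2 bases it was in 55 promoters (0.204%), none of them of a gene on these lists. A match describes letters in a window of 250 bases and is not a measured binding site.

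Hox genes of all 4 clusters were called higher. Of 39 tested, 27 were called higher and 1 lower, against 16.5% and 11.3% of all genes, with a median difference of 0.91 (0.0052 over all genes), and 18 of the 19 strong enough for the GC correction were still called higher after it. After quantile normalization 21 were called higher and 2 lower. The leading values came from the 3′ end of the clusters, which is switched on first along the body axis. *Hoxb2* had 3.37, 3.21 and 3.46 in ES and 7.14, 7.13 and 7.07 in RA (3.77 ± 0.11), *Hoxb1* rose by 3.25 ± 0.14, *Hoxa5* by 3.02 ± 0.21 and *Hoxb3* by 2.71 ± 0.18. In the Hoxc cluster *Hoxc5* rose by 2.18 and *Hoxc8* by 2.06, and in the Hoxd cluster the largest rise was that of *Hoxd1*, 1.27. Of the genes at the 5′ end of the clusters, *Hoxa11*, *Hoxa13*, *Hoxc11*, *Hoxd10*, *Hoxd11* and *Hoxd12* had differences from -0.07 to 0.32 and were not called. *Hoxb13* and *Hoxd13*, by contrast, were called higher, by 1.23 and 0.59, and *Hoxc12* was the 1 member called lower, from 2.80, 3.13 and 2.99 in ES to 2.19, 1.84 and 2.18 in RA. Most of these genes have low rlog values, where shrinkage is strongest.

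The partners and regulators of Hox proteins followed, with 9 of 13 called higher and 1 lower. *Meis1*, a DNA-binding partner, had 4.64, 4.41 and 4.77 in ES and 8.64, 8.57 and 8.59 in RA (3.99 ± 0.09). *Tshz1* rose by 3.38 and *Meis2*, a paralog of *Meis1*, by 2.52. The exception was *Cdx1*, a Hox activator, which was at 8.36, 8.34 and 8.49 in ES and at 5.60, 5.86 and 5.91 in RA (fell by 2.61 ± 0.09). *Cdx2* (-0.23, adjusted p = 0.307) and *Cdx4* (-0.09) were not called.

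Pluripotency genes were lower after RA, with members of both lists that were not. Among 13 genes of the core list 8 were called lower and 2 higher, and among 25 genes of the naive list 18 were called lower and 1 higher, with a median difference of -2.63. *Pou5f1* had 11.28, 11.28 and 11.27 in ES and 7.61, 7.67 and 7.66 in RA (fell by 3.63 ± 0.04), and *Sox2* had 9.69, 9.64 and 9.73 in ES and 7.03, 6.77 and 6.64 in RA (fell by 2.87 ± 0.08). All 3 RA samples were well below the ES samples for both factors. *Klf2*, *Klf4* and *Klf5*, Krüppel-like factors of the naive state, fell by 3.36, 2.79 and 1.40, and *Tcfcp2l1*, *Prdm14* and *Nr5a2* fell by 3.70, 3.38 and 3.17. *Sall4* (-0.06), *Trim71* (-0.12), *Gbx2* (-0.07) and the LIF receptor chains *Lifr* (0.26) and *Il6st* (-0.15) were not called. The RNA-binding proteins *Lin28a* and *Lin28b*, which block maturation of let-7 microRNAs, were the 2 core members called higher, *Lin28a* at 9.15, 9.06 and 8.96 in ES and 10.09, 10.07 and 10.09 in RA (1.03 ± 0.05) and *Lin28b* by 1.94 ± 0.12. *Myc* was the naive list member called higher (0.64 ± 0.11). The mean rlog over the naive list was 8.44 to 8.47 in the ES samples and 6.13 to 6.31 in the RA samples, so that the label of the ES group was borne out by its markers.

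Genes of the formative state, the step after naive pluripotency, were called in both directions, 6 of 12 higher and 4 lower. Of all genes, 16.5% were called higher and 11.3% lower. Among the 7 members with a mean rlog of at least 3, 3 were called higher and 3 lower, against 23.6% and 18.9% of all such genes. *Cdh2* (N-cadherin) rose by 3.07, *Sall2* by 2.36, *Fgf5* by 1.17, *Dnmt3a* by 1.05 and *Pou3f1* by 1.03. *Tcf15*, *Zic5*, *Zic2* and *Otx2* had differences of -1.71, -1.29, -0.86 and -0.82 and were called lower. *Fgf5* encodes a growth factor and *Dnmt3a* a DNA methyltransferase.

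Most markers of extraembryonic endoderm rose. Of 24 primitive and visceral endoderm genes 17 were called higher and 2 lower, against 16.5% and 11.3% of all genes, with a median of 1.60. *Gata6*, the transcription factor that starts the primitive endoderm program, had 3.05, 3.28 and 3.59 in ES and 6.79, 6.67 and 6.66 in RA (3.40 ± 0.14), and *Gata4* had 3.17, 3.24 and 3.57 in ES and 5.27, 5.80 and 5.65 in RA (2.25 ± 0.17). RA and ES samples were apart for both. *Cubn*, an endocytic receptor of visceral endoderm, rose by 3.92, *Plat* by 3.91, *Pth1r*, a parietal endoderm receptor, by 3.04, *Sox7* by 2.23, *Foxa2* by 2.00 and *Sox17* by 1.99. *Afp*, a product of visceral endoderm, was called higher (0.54, adjusted p = 0.0335) from 1.21, 1.20 and 1.29 in ES to 1.37, 1.80 and 2.15 in RA, while *Apoa1* (0.05), *Amn* (0.03), *Cer1* (0.10) and *Hhex* (0.21) were not called. *Apoe* and *Hnf4a* were called lower, *Apoe* from 11.36, 11.44 and 11.40 in ES to 9.22, 9.23 and 9.31 in RA. The mean rlog over the list was 3.41 to 3.59 in ES and 4.92 to 5.06 in RA.

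Basement membrane genes, whose products these cells secrete, were called higher in 11 of 19 cases and lower in 2. Of all genes, 16.5% were called higher and 11.3% lower. The collagen IV chains of the common heterotrimer rose together, *Col4a1* from 6.57, 6.43 and 6.63 in ES to 10.27, 10.32 and 10.32 in RA (3.76 ± 0.06) and *Col4a2* by 3.46 ± 0.07, as did *Lamb1* (3.38), the collagen chaperone *Serpinh1* (2.07), *Hspg2* (1.51) and *Lama1* (1.39). *Nid1* and *Fn1* fell by 1.48 and 0.89, and *Lamc1* (0.45) and *Nid2* (near 0) were not called.

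Neural, mesodermal and trophoblast lists were mixed. Of all genes, 16.5% were called higher and 11.3% lower. Among 23 neural genes 9 were called higher and 1 lower. *Pax6* had 2.98, 2.68 and 2.84 in ES and 5.12, 5.35 and 5.47 in RA (2.48 ± 0.15), *Irx3* rose by 3.10 and *Lhx1* by 2.51, while *Neurog2*, *Neurod1*, *Hes5*, *Fabp7* and *Pax7* had differences within 0.01 of 0 at the floor of the scale, and *Tubb3*, a tubulin of neurons, was called lower (-0.60). Among 23 primitive streak and mesoderm genes 8 were called higher and 5 lower. *T* (Brachyury), which marks the streak, had 4.01, 4.03 and 4.36 in ES and 2.90, 2.38 and 2.51 in RA (fell by 1.53 ± 0.18), and the Nodal inhibitors *Lefty1* and *Lefty2* fell by 1.52 and 1.61, *Nodal* by 0.77 and *Eomes* by 0.73. *Meox1* (3.30), *Hand2* (2.16), *Foxf1a* (2.07), *Kdr* (1.90) and *Hand1* (1.36), genes of later mesoderm or of extraembryonic tissue, were called higher. Among 12 trophoblast genes 7 were called higher, led by *Gata3* (2.72) and *Krt7* (2.50), and 2 lower, *Tcfap2c* (-1.52) and *Tead4* (-0.97), while *Elf5* (0.13) and *Cdx2* were not called.

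The cytoskeleton and matrix rose widely. Of 16 fibroblast genes 14 were called higher and 1, *Thy1*, lower (-0.53), although the cultures had no feeder layer. *Tagln*, an actin-binding protein of smooth muscle, had 4.26, 4.30 and 4.46 in ES and 8.77, 8.83 and 8.75 in RA (4.44 ± 0.08), and the type I, III and V collagen genes *Col1a2*, *Col3a1* and *Col5a1* rose by 4.30, 3.81 and 2.49. The mean rlog over this list was 3.32 to 3.45 in ES and 5.53 to 5.60 in RA, and *S100a4* (0.12) and *Thy1* did not share the rise. Of 19 genes of epithelial and mesenchymal state 12 were called higher and none lower, with genes of both states among them: the simple epithelial keratins *Krt18*, *Krt19* and *Krt8* rose by 4.15, 3.40 and 3.21 and the tight junction gene *Cldn6* by 3.41, and the mesenchymal *Zeb2*, *Cdh11* and *Vim* by 2.83, 1.31 and 0.71. E-cadherin (*Cdh1*, -0.33) and *Epcam* (0.30) were not called.

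**Figure D2:**
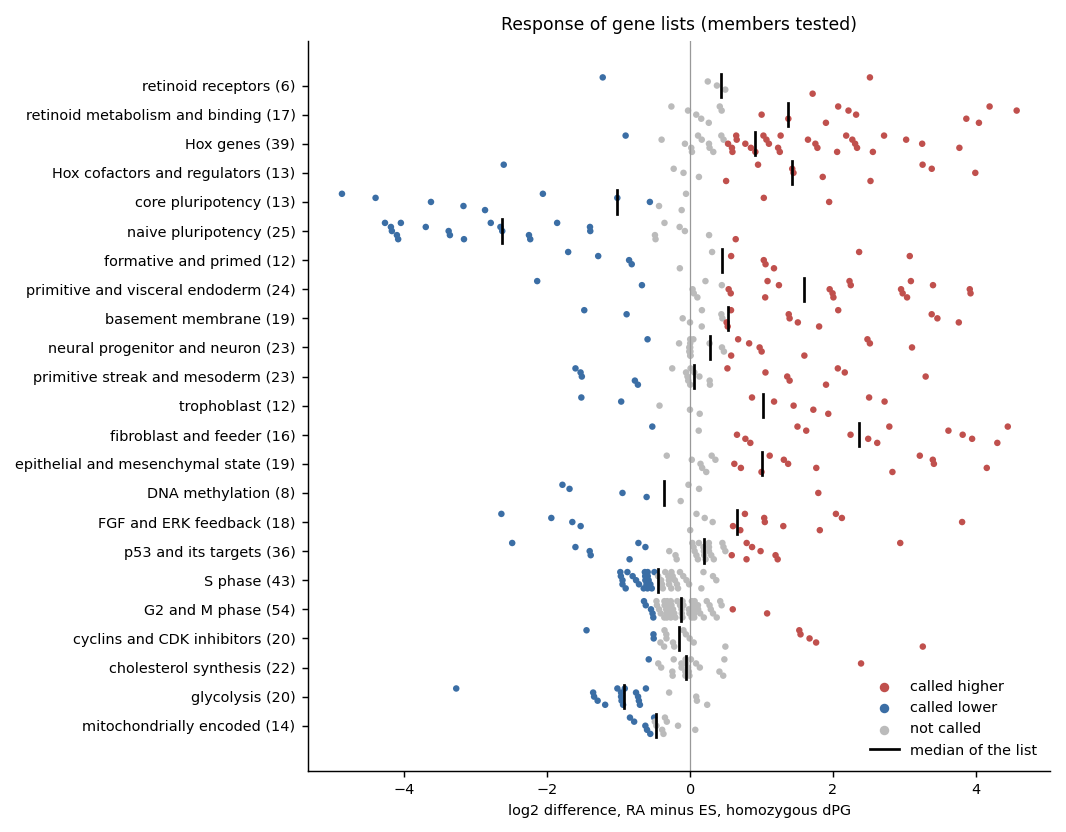
RA minus ES log2 difference of each tested member of 23 gene lists in homozygous ΔPG cells (1 point per gene, number of genes in brackets), red where called higher, blue where called lower and grey where not called, with a black bar at the median of the list. The fibroblast (median 2.37) and endoderm (1.60) lists lie farthest to the right and the naive pluripotency list (-2.63) farthest to the left, while the G2 and M phase list stays near 0.

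Regulators of DNA methylation and of FGF signaling moved in both directions. *Tet1* and *Tet2*, the dioxygenases of ESCs that oxidize methylcytosine, fell by 1.69 and 1.79, while *Tet3* rose by 1.79 ± 0.15, from 4.25, 4.45 and 4.79 in ES to 6.44, 6.34 and 6.09 in RA. *Uhrf1*, which guides maintenance methylation, fell by 0.95, whereas *Dnmt1* (-0.13) and *Dnmt3b* (0.31) were not called. The receptor gene *Fgfr2* had 4.43, 4.55 and 4.57 in ES and 8.31, 8.33 and 8.32 in RA (3.81 ± 0.08), and *Fgfr1* and *Fgfr3* rose by 1.04 and 1.30. Targets and feedback inhibitors of ERK were split, with *Dusp6* and *Dusp4* higher by 2.12 and 2.04, and *Etv5*, *Spry2*, *Spry4* and *Etv4* called lower, at -2.64, -1.94, -1.65 and -1.53. In the list as a whole 10 of 18 genes were called higher and 4 lower. Among all genes with a mean rlog of at least 3, as 16 of these had, the shares were 23.6% and 18.9%.

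Many S phase genes fell. Of 43 S phase genes 21 were called lower and none higher, with a median difference of -0.45, while of 54 G2 and M phase genes 5 were called lower and 2 higher, with a median of -0.13. All of them had a mean rlog of at least 3, where 23.6% of genes were called higher and 18.9% lower. The G2 and M phase counts were below these shares. After quantile normalization the counts were 13 lower in S phase, and 5 higher and none lower in G2 and M phase, so that the direction of the latter list rests on the scaling. Among S phase genes the largest differences were those of *Ung* (-0.98), which removes uracil from DNA, *Mlf1ip* (-0.97) and *Uhrf1* (-0.95). Of 20 cyclin, CDK and CDK inhibitor genes 5 were called higher and 3 lower. A mean rlog of at least 3 was reached by 19 of them, and the counts are near the shares just given. *Ccnd2* rose from 3.47, 3.20 and 3.62 in ES to 6.78, 6.64 and 6.65 in RA (3.26 ± 0.13), while *Ccnd1*, its paralog, fell by 1.45. The CDK inhibitor genes *Cdkn2b*, *Cdkn1c* and *Cdkn2a* rose by 1.76, 1.54 and 1.53, and *Rb1* rose by 1.67. By contrast *Cdkn1a*, a CDK inhibitor gene counted on the p53 list below, fell by 2.49. *Mid1*, a microtubule-associated ubiquitin ligase followed in the study, had 7.58, 7.59 and 7.60 in ES and 7.89, 7.99 and 7.92 in RA, groups that do not overlap, with a difference of 0.34 ± 0.05 (adjusted p = 0.000296) that stayed under the limit of 0.5. *Lin54* and *Sec31a*, neighbours of the deleted gene, differed by -0.10 and -0.12 and were not called.

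Genes of glycolysis fell together. Among all genes with a mean rlog of at least 3, as all 20 tested had, 18.9% were called lower. Of 20 tested 16 were called lower and none higher, with a median of -0.93, and 16 were called lower after the GC correction as well, though 11 after quantile normalization. *Pfkp*, an isoform of phosphofructokinase, had 10.48, 10.45 and 10.44 in ES and 7.22, 7.16 and 7.15 in RA (fell by 3.28 ± 0.04). *Aldoa*, *Hk2*, *Pdk1* and *Pgk1* fell by 1.36, 1.35, 1.30 and 1.19. *Slc2a1*, the glucose transporter GLUT1, differed by 0.09 and was not called. Of 22 cholesterol synthesis genes 1 was called higher and 1 lower, *Nsdhl* (-0.58).

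*Trp53*, which encodes p53, was low in the homozygous cells under both treatments. Its values were 3.83, 4.00 and 4.24 in ES and 4.06, 3.56 and 3.88 in RA, which overlap (difference of -0.19 ± 0.17, adjusted p = 0.437). After quantile normalization it was called lower, with a difference of -0.61. In the heterozygous ΔPG cells it had 7.15, 6.95 and 7.05 in ES and 6.06, 6.19 and 5.87 in RA, a fall of 1.01, and the responses of the lines differed by 0.82 ± 0.20 (adjusted p = 0.0066) and, with the GC trend removed, by 0.62 (adjusted p = 0.0174). The ΔG lines, in a table normalized separately, had values of 2.24 to 2.78 in ES and 2.17 to 2.88 in RA. *Trp53* was not called in either ΔG line (0.10 in homozygous and -0.34 in heterozygous cells).

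Of 36 genes on the p53 list 8 were called higher and 7 lower, with a median of 0.19, and 35 of them had a mean rlog of at least 3, where 23.6% of all genes were called higher and 18.9% lower. The counts are near that background. The CDK inhibitor gene *Cdkn1a* (p21), the best known of these targets, had 6.77, 6.71 and 6.79 in ES and 4.64, 4.26 and 3.89 in RA (fell by 2.49 ± 0.16, adjusted p = 1.78e-07). The fall was larger than in heterozygous cells (7.47 to 7.50 in ES, 6.43 to 6.51 in RA) by 1.47 ± 0.19 on the log2 scale (adjusted p = 4.2e-05), and by 1.75 with the GC trend removed, while the ΔG lines had falls of 2.83 and 2.74. *Plk2* rose by 2.94, *Perp* by 1.22 and *Btg2* by 1.19, and *Pltp*, *9630033F20Rik* (TIGAR) and *Gdf15* had -1.61, -1.41 and -1.39. *Eda2r*, *Ccng1*, *Trp53inp1* and *Mdm2*, other p53 targets, were not called in homozygous cells, with differences of 0.26, 0.26, 0.26 and 0.09, whereas in heterozygous cells they were called higher, by 0.63 to 1.26. The test of the difference between the lines called all 4 of them (*Eda2r* -0.88, adjusted p = 0.000234), but with the GC trend removed none of the 4 was called (*Eda2r* -0.26, adjusted p = 0.281). The part of p53 in any of these differences was not tested.

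The response of the homozygous cells was compared as a whole with those of the other lines, none of which share samples with it. Heterozygous ΔPG cells had 3960 genes called higher (18%) and 2987 lower (13.6%), homozygous ΔG cells 3759 (17%) and 2675 (12.1%), and heterozygous ΔG cells 3911 (17.7%) and 2588 (11.7%). Of the calls in homozygous ΔPG cells 73.9% were called in the same direction in heterozygous ΔPG cells, and 65% of the calls in the latter were shared the other way, with 35 genes called in opposite directions. Across the 11904 genes with a mean rlog of at least 3, which are not independent replicates, the homozygous ΔPG differences correlated with those of heterozygous ΔPG cells at r = 0.887 (rho = 0.794), or 0.942 (rho = 0.894) with the GC trend removed, and with those of homozygous and heterozygous ΔG cells at r = 0.971 (rho = 0.959) and r = 0.97 (rho = 0.955). Over 11766 genes in both tables the median absolute gap between the homozygous ΔPG response and another response was 0.301 for heterozygous ΔPG, 0.133 for homozygous ΔG and 0.139 for heterozygous ΔG cells, and the gap between the ΔG lines was 0.139. These gaps hold the GC trend of the ES libraries described below. In the ΔG table, which was transformed separately, *H19* differed by 7.08 in homozygous and 6.47 in heterozygous cells and *Cyp26a1* by 5.54 and 5.88, while *Col1a2* differed by 4.20 and 5.43.

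**Figure D3:**
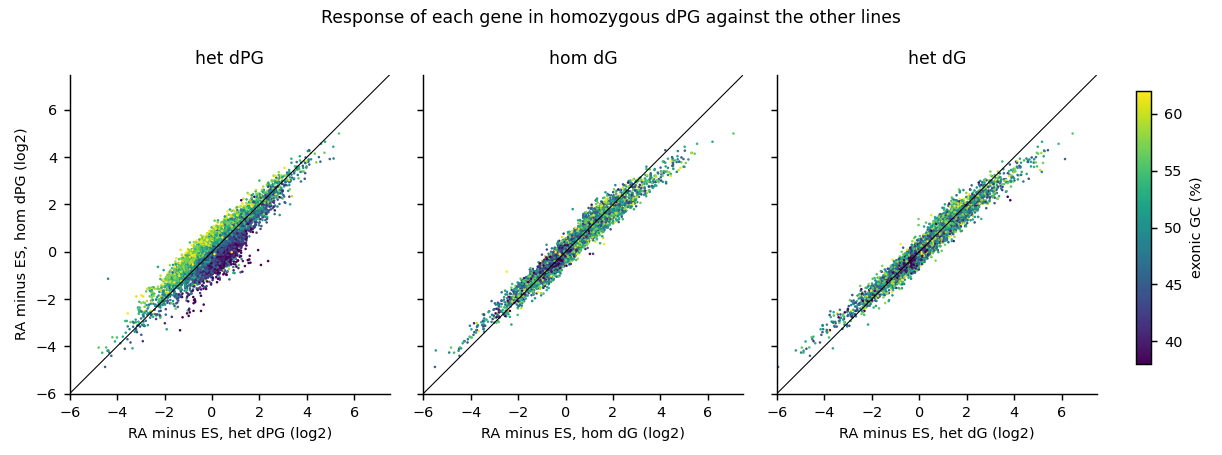
RA minus ES log2 difference of each gene with a mean rlog of at least 3 in homozygous ΔPG cells (vertical) against that in heterozygous ΔPG, homozygous ΔG and heterozygous ΔG cells (horizontal, left to right), coloured by exonic GC content in percent, with the line of equal values. Points spread by color around the line against heterozygous ΔPG cells (r = 0.887) and lie in a narrower band against the ΔG lines (r = 0.971 and 0.97).

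Exonic GC content moved with the ES libraries. The deviation of each library from the gene means of the ΔPG table correlated with GC at -0.238 to -0.292 in the 3 homozygous ES libraries and at 0.333 to 0.339 in the 3 heterozygous ES libraries, while the RA libraries of both lines lay between -0.0853 and -0.0238. These deviations are relative to a mean that holds both lines, so a trend in either ES group gives the opposite sign in the other. Set against the ΔG table, a comparison of tables normalized separately, the heterozygous ΔPG ES means rose with GC (r = 0.664 and 0.668 against the ΔG lines), from a median gap of -0.659 in the lowest of 10 GC groups to 0.503 in the highest, whereas the homozygous ΔPG ES means did so weakly (r = 0.176 and 0.168, from -0.065 to 0.054). Within homozygous cells the median RA minus ES difference went from -0.179 in the lowest GC group (median 39.93%) to 0.180 in the highest (59.56%), and in heterozygous cells from 0.446 to -0.262. The correlation of the response with GC was 0.121 in homozygous ΔPG, -0.208 in heterozygous ΔPG, 0.135 in homozygous ΔG and 0.11 in heterozygous ΔG cells. Removing the trend from each library left the homozygous response nearly as large in counts. Among the 11904 genes 2814 were called higher (23.6%) and 2253 lower (18.9%) before the correction and 2698 (22.7%) and 2292 (19.3%) after it, and 4660 of the 5067 calls remained in the same direction. The 24 genes of the plot of largest changes had to be called after it as well.

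**Figure D4:**
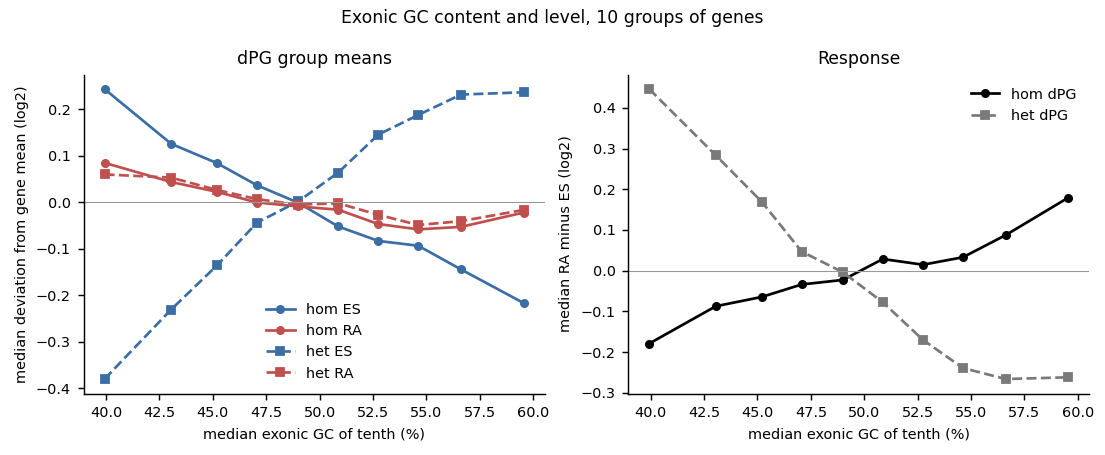
Median over each of 10 groups of genes of equal size, ordered by exonic GC content (horizontal, percent), of the deviation of the ΔPG group means from the gene mean (left, log2) and of the RA minus ES difference (right, log2), for homozygous (solid lines) and heterozygous (dashed lines) cells. The ES groups slope in opposite directions, the RA groups are nearly level, and the homozygous response runs from -0.179 to 0.180.

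The difference between the lines was tested as the interaction of genotype and treatment over all 12 ΔPG libraries. The homozygous minus heterozygous response was called higher for 1476 genes (6.72%) and lower for 1580 (7.19%). A lower signed value can be a smaller rise or a deeper fall in homozygous cells. This difference between the responses correlated with GC at r = 0.695 over 11904 genes. With the GC trend removed 434 genes were called higher (3.65%) and 688 lower (5.78%), and 645 of the 2881 calls among these genes remained. Among named genes that remained, *Acta2*, smooth muscle actin, rose less in homozygous cells, by 3.95 against 5.13 (difference of -1.18, adjusted p = 2e-06), as did *Cubn* (-1.04), *Gata4* (-0.73, adjusted p = 0.0877) and *Tagln* (-0.67), while *Tcl1* fell more (-0.73). Of 24 primitive and visceral endoderm genes 5 were called lower and 1 higher before the correction. With the GC trend removed 10 of the 18 that could be corrected were called lower and none higher (median of -0.52). Of 39 Hox genes none was called higher and 1 lower before the correction, *Hoxa2* (0.44 against 1.31), which was too low to be corrected. With the GC trend removed 3 of the 19 that could be corrected were called lower, *Hoxb13* (-0.65), *Hoxb3* (-0.55) and *Hoxa7* (-0.53).

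RNAs encoded by the mitochondrial genome differed between the lines as a group. In homozygous cells 6 of 14 were called lower and none higher, with a median of -0.48, and of the 13 that could be corrected for GC 5 were called lower before the correction and 2 after it. After quantile normalization 1 was called higher and 2 lower. *mt-Co1*, a subunit of cytochrome oxidase, had 15.88, 15.82 and 15.95 in ES and 15.11, 15.10 and 15.07 in RA (fell by 0.78 ± 0.02), *mt-Co3* fell by 0.84 and *mt-Rnr2*, the large ribosomal RNA, by 0.63. In heterozygous cells 13 of the 14 were called higher after RA, with a median of 1.45. The interaction called all 14 lower, and 12 of 13 with the GC trend removed, with the widest gaps for *mt-Atp8* (-2.76) and *mt-Nd3* (-2.62). The medians in the ΔG lines, -0.30 in homozygous and -0.33 in heterozygous cells, were near that of homozygous ΔPG cells. *mt-Co1* was at 14.18 to 14.21 in the heterozygous ΔPG ES libraries and at 15.82 to 15.95 in the homozygous ones, and the RA libraries of both lines were at 15.07 to 15.12. The part of RNA quality in this difference was not tested.

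**Figure D5:**
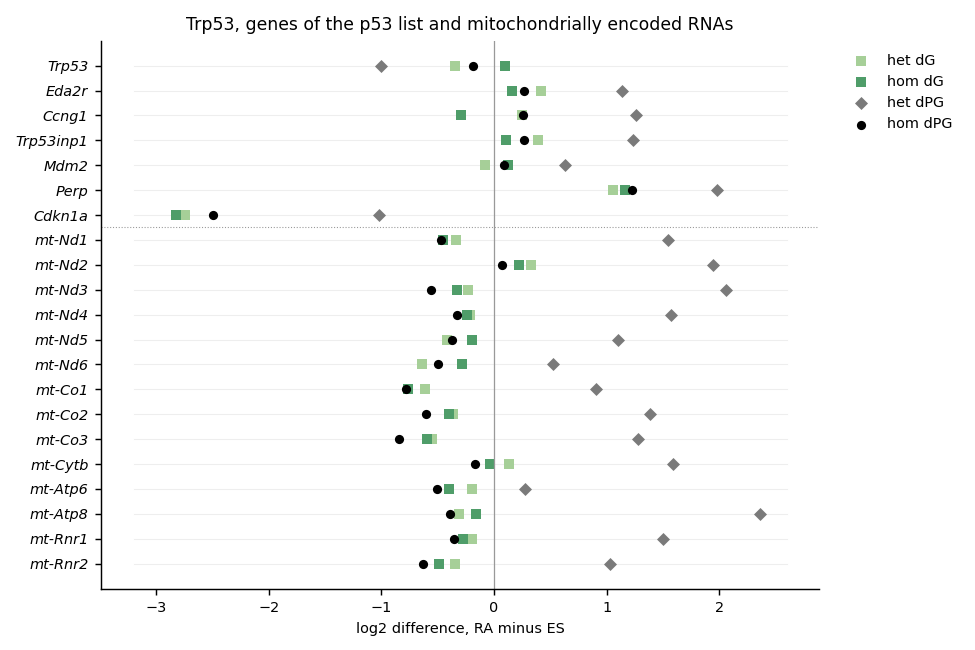
RA minus ES log2 difference of *Trp53*, 6 p53 target genes (above the dotted line) and 14 mitochondrially encoded RNAs (below it) in homozygous ΔPG (black circles), heterozygous ΔPG (grey diamonds), homozygous ΔG (dark green squares) and heterozygous ΔG cells (light green squares). The black circles lie near the squares, while the diamonds lie apart, as for *mt-Co1* (-0.78 in homozygous and 0.91 in heterozygous ΔPG cells).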

How the data were processed

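RNA was sequenced from ES and RA samples of 4 lines, 3 replicates per group. According to the study's methods, stranded ribosomal-depleted libraries were aligned with TopHat2 (2.1.0) to mm9, duplicates were removed with Picard, and reads were counted with HTSeq (0.6.0). The authors transformed the counts with DESeq2 (1.14.1) and deposited regularized log2 values, in separate tables for ΔPG and ΔG. Counts were not used here, so depth is unknown. RA and ES were compared with limma (3.58.1, R 4.3.3) with a variance trend, over all varying genes, with Benjamini-Hochberg adjustment. The interaction was fitted over the 12 ΔPG samples. The exonic GC trend was removed per library by lowess (span 0.3) over genes with a mean of at least 3. On simulated data 185 of 200 genes changed by a doubling, up or down, were recovered for RA against ES, with 3 false calls among 21979 genes. The changed genes were drawn only from those with a mean rlog of at least 3. The doubling was added in full on the rlog scale, so recovery of weaker or shrunken genes was not tested. With a GC trend put in there were 1410 false calls among 11904 genes, and 6 once it was removed. That trend was steeper than the slopes of the homozygous ES libraries (-0.2143, -0.1941 and -0.2305 per 10% GC). These counts therefore do not measure the false calls in the data. Members and lists were chosen with earlier results of these data known. The 12 largest rises and falls were named by rule (called, not overlapping, mean rlog of at least 3, called after GC removal). Every receptor, lineage panel and locus gene and the called Hox genes were open to naming, and of other lists up to 3 members in each direction. Further members were named after their values were seen, and older gene symbols were added to the lists once the tables were read. Some list members are counted but their values are not reported here.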

Additional observations from a re-analysis of the deposited data

Results flagged for a closer look

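The genes below were singled out because the RA response differed between homozygous and heterozygous ΔPG cells by limma's test of that difference, with and without the GC trend. Values are the homozygous minus the heterozygous response on the log2 scale, from 3 samples in each of 4 groups. Among genes of the lists and of the largest changes, *Cdkn1a* (-1.47), *Tcl1* (-0.73) and *Zic5* (-0.64) fell in both lines and fell more in homozygous cells. *Acta2* (-1.18), *Cubn* (-1.04), *Perp* (-0.76), *Gata4* (-0.73), *Tagln* (-0.67) and *Cyp26b1* (-0.55) rose in both lines and rose less in homozygous cells. *Trp53* (0.82) had -0.19 in homozygous cells, where it was not called, against -1.01 in heterozygous cells. The mitochondrial RNAs *mt-Atp8*, *mt-Nd3*, *mt-Co3*, *mt-Co1* and *mt-Rnr2* had -2.76, -2.62, -2.12, -1.69 and -1.66. The predicted genes *Gm10925*, *Gm15500* and *Gm13151* had -2.08, -2.07 and -2.04. The largest differences in the other direction were those of *RNaseP_nuc* (1.64), *Spire2* (1.41), *Ccdc85b* (1.33), *Inhbb* (1.30), *Snord17* (1.26) and *Crocc* (1.23). No cause of these differences was tested.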

How the results depend on the processing

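The homozygous response called 6435 genes higher and 4989 lower with no limit on the difference, and 1679 and 757 at an adjusted p under 0.01 and a difference over 1. The difference between lines called 3342 higher and 3045 lower with no limit, 51 and 206 at the strict limits, and 933 higher at an adjusted p under 0.05 and a fold over 1.5. With the GC trend removed it called 434 higher and 688 lower, and 435 and 691 with the replicate block as well. These limits change the counts by construction, and the cause of the fall with GC removal was not tested. Leaving out 1 sample at a time gave 3588 to 3708 higher and 2473 to 2515 lower in homozygous cells, and 1423 to 1538 higher and 1497 to 1616 lower for the difference between lines. Same-numbered samples did not deviate together in homozygous cells (r of 0.0316, 0.0112 and 0.00982), so no large effect shared by number was seen. These values cannot show whether same-numbered samples were handled as pairs, which the labels do not say. The replicate block alone gave 3635 higher and 2483 lower. Under quantile normalization 14 named genes lost their call in homozygous cells, among them *Myc*, *mt-Co1*, *mt-Co3*, *mt-Rnr2* and 6 Hox genes, and *Trp53* (-0.61) and *Cdx2* (-0.50) gained one, and with the GC trend removed *Ect2*, *Top2a* and *mt-Rnr2* lost theirs. Of the named genes 2 that were not called changed sign, *Sec31a* to 0.0562 and *5430416N02Rik* to -0.2544 with quantile normalization, and leaving out 1 sample at a time the latter ranged from -0.1003 to 0.1691. Low genes are limited by the shrinkage of the rlog scale and by unknown depth.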

Other observations

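Imprinted genes were a list chosen after the rise of *H19* was seen and given as a description with no test. Of 40 tested genes 20 were called higher and 4 lower in homozygous ΔPG cells, against 16.5% and 11.3% of all genes. Their median log2 difference was 0.45. Both alleles' classes were among the rises, 9 of 17 maternally and 11 of 23 paternally expressed genes. *Dlk1*, *Peg3*, *Peg10*, *Mest* and the growth factor gene *Igf2* rose by 3.82, 3.81, 3.56, 3.15 and 3.08, and *Igf2r*, *Mcts2*, *Copg2* and *Impact* had -0.84, -0.79, -0.61 and -0.55. Of 205 small nucleolar RNA genes, also looked at after the data were seen, 2 were called higher and 50 lower (24.4%) in homozygous cells, with a median of -0.17, and 9 higher and 26 lower (12.7%) in heterozygous cells. Of all genes, 11.3% were called lower in homozygous and 13.6% in heterozygous cells. The heterozygous share of falls was thus near that of all genes.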
